A study of Mus musculus with 9 samples.

Results

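The Ikaros family are zinc finger transcription factors of lymphocytes, and the members measured here were Ikzf1 (encoding Ikaros), Ikzf2 (Helios), Ikzf3 (Aiolos), Ikzf4 (Eos) and Ikzf5 (Pegasus). They were chosen by gene symbol, and all 5 of 5 were found among the 24594 genes of the expression table. RNA-seq libraries (n = 9) were made from semimature OT-II thymocytes, which carry a transgenic T cell receptor for an ovalbumin peptide and were sorted as CD4+ CD8- CD69+ cells bearing Vα2 and Vβ5. They came from mixed bone marrow chimeras, irradiated hosts that received marrow from 3 donors, analysed 4.7 weeks after reconstitution. Control donors (OT-II) were Nr4a1+/+ Nr4a3+/+ and F1 offspring of B6.Cg-Tg(TcraTcrb)425Cbn/J and BoyJ mice, and double knockout donors (DKO) were OT-II Nr4a1-/- Nr4a3-/- on C57BL/6. The third donor was wild-type marrow without the OT-II transgene, which was not sequenced. WT hosts were labelled BoyJ, although the study's methods also describe WT littermates of the RIPmOVA cross, and RIPmOVA hosts, F1 offspring of BoyJ mice and C57BL/6 mice with the transgene Tg(Ins2-TFRC/OVA)296Wehi, express membrane-bound ovalbumin from an insulin promoter, so that ovalbumin is a self-antigen for OT-II cells. There were 2 OT-II and 3 DKO libraries of WT hosts, and 2 OT-II and 2 DKO libraries of RIPmOVA hosts. OT-II and DKO cells with the same replicate number in the same host type were sorted from the same chimera, which gave 4 pairs, while equal numbers in different hosts are different animals. Genotype and the congenic background of the donor cannot be told apart, and by the labels neither can the self-antigen and the strain of the host.

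Ikaros family proteins bind DNA through a cluster of zinc fingers near the amino terminus and pair with each other through zinc fingers at the carboxyl terminus. They recruit chromatin remodelling and corepressor complexes, chiefly NuRD. In the thymus Ikaros and Aiolos are needed for orderly T cell development, and Helios and Eos are best known from regulatory T cells, where Eos acts as a partner of Foxp3. Helios is also known as a marker of thymocytes that received strong signals through the T cell receptor. Pegasus is the most divergent member and is expressed in many tissues.

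The second amino-terminal zinc finger shows how closely the DNA-binding parts of these factors are related. Its coding sequence is shown because it is shared in protein but not in bases, and the counts of the 5 genes rest on the bases. Sequences are from GENCODE vM21 transcripts on GRCm38, 5′ to 3′ in the coding direction, with the codons of the 2 cysteines and 2 histidines that hold the zinc in capitals.
Ikzf1: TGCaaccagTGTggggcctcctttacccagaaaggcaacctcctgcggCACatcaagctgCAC
Ikzf2: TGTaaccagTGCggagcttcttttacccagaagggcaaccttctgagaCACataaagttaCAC
Ikzf3: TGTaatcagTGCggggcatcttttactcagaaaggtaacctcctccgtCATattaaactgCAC
Ikzf4: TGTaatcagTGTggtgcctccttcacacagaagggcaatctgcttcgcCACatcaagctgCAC
Ikzf5: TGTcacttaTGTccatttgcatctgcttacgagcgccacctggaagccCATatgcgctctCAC
These are exonic, coding stretches of 63 bases: chr11:11754024-11754086 on the plus strand (Ikzf1, exon 5), chr1:69570581-69570643 on the minus strand (Ikzf2, exon 5), chr11:98488940-98489002 on the minus strand (Ikzf3, exon 5), chr10:128640229-128640291 on the minus strand (Ikzf4, exon 5) and chr7:131392501-131392563 on the minus strand (Ikzf5, exon 4). In Ikzf1 to Ikzf4 all 21 of 21 encoded residues were the same in every pair, while 76.2% to 84.1% of the bases were identical. Ikzf5 shared 5 of 21 residues with each of the others and 41.3% to 47.6% of the bases. The longest run of bases shared exactly by transcripts of any 2 members was 32 bases, between Ikzf2 and Ikzf4, which is shorter than the 100-base reads.

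By annotation (GENCODE vM21, GRCm38), all 5 are protein-coding genes. Ikzf1 lies at chr11:11685003-11772926 on the plus strand, Ikzf2 at chr1:69531214-69687245, Ikzf3 at chr11:98464902-98546031, Ikzf4 at chr10:128630843-128645991 and Ikzf5 at chr7:131388652-131410521, the last 4 on the minus strand. Exons of Ikzf5 share 4835 of 5721 bases with genes on the other strand (Gm44624 and Pstk), those of Ikzf2 share 144 bases with Gm29114, and those of Ikzf4 share 37 bases with Gm26876. Use of strand in the counting is not given in the sources used here, so the Ikzf5 level is uncertain.

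The libraries held 15520000 to 25060000 counted reads, recovered from the steps of the low values. The targeted genes do not check the DKO label at the level of whole genes. Nr4a1 was 60.7 and 86.1 RPKM (reads per kilobase of exon, scaled to library depth) in OT-II libraries of WT hosts and 60.1, 80.2 and 87.7 RPKM in DKO libraries of WT hosts. In RIPmOVA hosts Nr4a1 was 260 and 229 RPKM in OT-II cells and 282 and 235 RPKM in DKO cells, and Nr4a3 was 5.66 and 3.72 RPKM against 16.5 and 14.1 RPKM. A whole-gene value cannot show a transcript that is made but carries the deletion, so these libraries are called DKO-labelled below. Of the 6 markers of CD4 single-positive thymocytes, Cd3e, Cd3d and Cd4 were at 234 to 303, 253 to 318 and 189 to 241 RPKM in all libraries. Zbtb7b was at 18.6 to 38.7 RPKM. Cd69 was higher in RIPmOVA hosts, at 113 to 138 against 76.2 to 83.4 RPKM. Ccr7 was lower there, at 323 and 326 against 397 and 399 RPKM in OT-II and at 355 and 438 against 476 to 500 RPKM in DKO-labelled libraries. Markers of CD8 or double-positive thymocytes differed in level. Cd8a was at 1.76 to 7.60, Rag1 at 0.119 to 2.94 and Rag2 at 0.849 RPKM or lower. Cd8b1 was at 54.5 to 96.4 and Dntt at 17.0 to 30.1 RPKM. Reads on genes of sensory receptors, used here as a measure of background, were at 296 to 1502 RPM (reads scaled to depth), and both DKO-labelled libraries of RIPmOVA hosts (1055 and 1502) were above both OT-II libraries there (557 and 296). The 4 markers of thymic epithelium were also higher in these DKO-labelled libraries, where they summed to 7.18 RPKM or more, than in the others, at 2.55 to 6.73 RPKM, with Epcam the highest of the 4 in every library, Aire at 0.339 RPKM or lower and Krt5 at 0.166 RPKM or lower. Levels in bulk RNA cannot tell fewer expressing cells from less RNA per cell.

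Ikzf1 was the most abundant member per length in all 9 libraries, and the composition of the family differed between hosts. Ikzf2, Ikzf3 and Ikzf4 were higher in RIPmOVA hosts in both genotypes. In DKO-labelled cells the mean of Ikzf1 was also lower there, at 31.3 against 42.5 RPKM, a difference that was not called. Among WT hosts Ikzf1 held 57.9% and 71.7% of the summed RPKM of the family in OT-II libraries and 74.5%, 74.6% and 71.4% in DKO-labelled libraries. In RIPmOVA hosts its share was 43.0% and 44.4% in OT-II cells and 43.7% and 49.2% in DKO-labelled cells, below the lowest share in any WT host. The share of Ikzf2 was 0.730% to 2.87% over the 5 libraries of WT hosts and 12.3% to 23.4% over the 4 of RIPmOVA hosts. The summed level of the family was 45.6 and 64.6 RPKM in OT-II cells of WT hosts and 83.9 RPKM in each OT-II library of RIPmOVA hosts. In DKO-labelled libraries the sum was 57.1, 66.2 and 50.0 RPKM in WT hosts and 68.0 and 66.7 RPKM in RIPmOVA hosts.

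**Figure D1:**
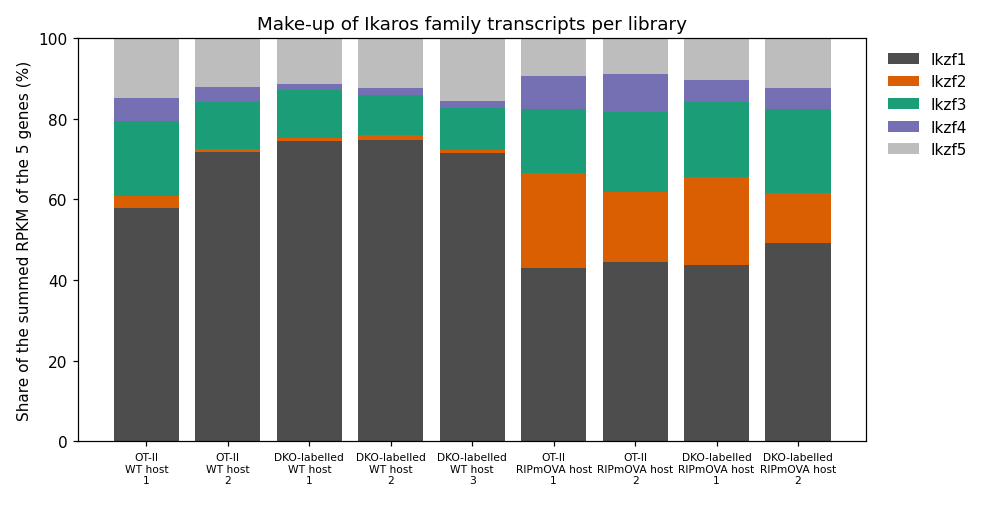
Share of each member in the summed RPKM of the 5 genes (y axis, percent) in each of the 9 libraries (x axis, group and replicate number). Ikzf2, in orange, is at 0.730% to 2.87% in libraries of WT hosts and at 12.3% to 23.4% in libraries of RIPmOVA hosts.

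The order of the levels below Ikzf1 also differed by host. In OT-II cells of WT hosts it was Ikzf3, Ikzf5, Ikzf4 and Ikzf2, and the libraries overlapped only between Ikzf3 and Ikzf5. In DKO-labelled cells of WT hosts the overlaps were between Ikzf5 and Ikzf3 and between Ikzf4 and Ikzf2, the lowest pair. In RIPmOVA hosts Ikzf2 stood beside Ikzf3, with overlapping libraries in both genotypes, and overlaps were also seen between Ikzf5 and Ikzf4 in OT-II cells and between Ikzf2 and Ikzf5 in DKO-labelled cells. These orders depend on the exon length that the authors divided by, which was 10847, 17291, 9510, 12254 and 7202 bases for Ikzf1 to Ikzf5. With the exon union of GENCODE vM21 (5777, 11613, 8754, 5995 and 5721 bases), an alternative chosen after seeing the data, Ikzf1 stayed highest in all 4 groups. Ikzf4 then stood above Ikzf5 in OT-II cells of RIPmOVA hosts (15.2 against 9.81 RPKM). Ikzf5 stood above Ikzf3 in OT-II cells of WT hosts (9.23 against 8.67 RPKM). Ikzf2 stood above Ikzf3 in DKO-labelled cells of RIPmOVA hosts (17.2 against 14.3 RPKM). The share of Ikzf2 in RIPmOVA hosts was 18.7% in OT-II cells and 16.0% in DKO-labelled cells.

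**Figure D2:**
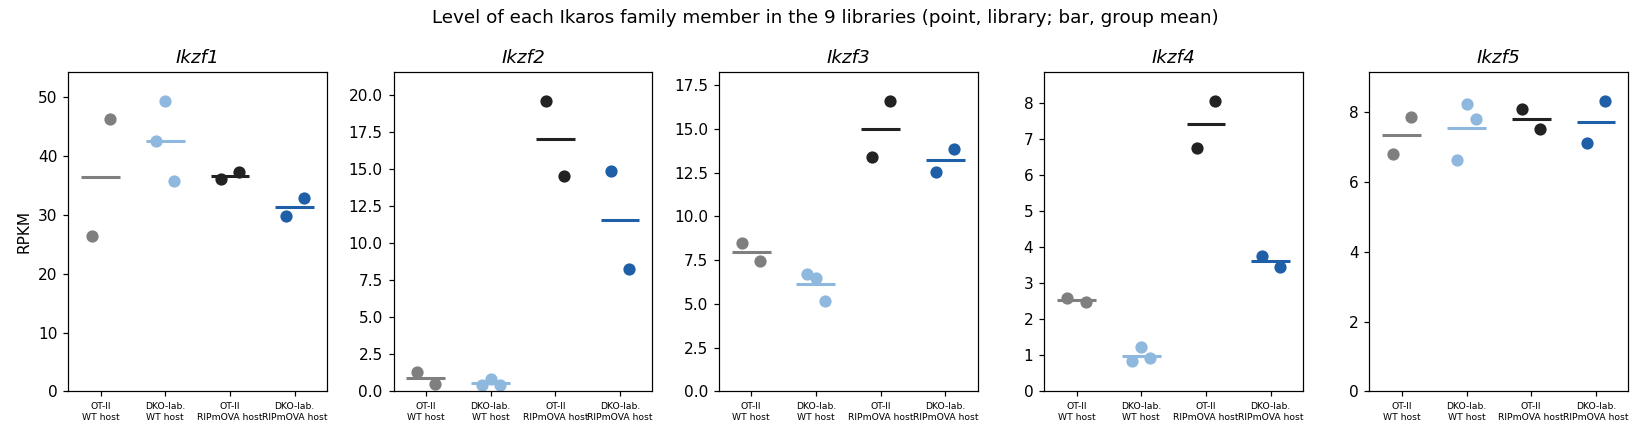
RPKM of each member (y axis, linear from 0, with its own range in each panel) by group (x axis), with a point per library and a bar at the group mean. Ikzf2, Ikzf3 and Ikzf4 are higher in RIPmOVA hosts without overlap in either genotype, and Ikzf5 lies between 6.61 and 8.31 RPKM throughout.

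The comparison of RIPmOVA with WT hosts in OT-II cells asked which members respond when the self-antigen is present. Ikzf2 and Ikzf4 rose, Ikzf3 was higher by less than the fold threshold, and no change of Ikzf1 or Ikzf5 was detected. Calls required a log2 fold change of at least 1 in either direction together with a Benjamini-Hochberg adjusted p no higher than 0.05 (limma, 11569 genes tested). All 5 members passed the filter on low values, but Ikzf2 would not have passed it on libraries of WT hosts alone. Its part in the counts and medians of the host comparisons is therefore no support for a response of the family. By this rule 2 of 5 members were called, both higher, beside 1.23% of all genes tested. The median change was 0.87 over the members and -0.02 over all genes.

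Ikzf2 was at 1.31 and 0.476 RPKM in OT-II libraries of WT hosts, which corresponds to about 351 and 190 reads, and at 19.6 and 14.5 RPKM in those of RIPmOVA hosts, about 5580 and 6070 reads. The lowest library of RIPmOVA hosts was far above the highest of WT hosts. The means were 0.892 ± 0.588 and 17.0 ± 3.59 RPKM (SD, n = 2 each), a ratio of 19.1, and the difference on the log2(RPKM + 0.5) scale was 3.71 (SE 0.36, limma adjusted p = 0.0017). The added 0.5 makes this log2 value smaller than that of the ratio, most of all for a gene as low as Ikzf2 in WT hosts.

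In WT hosts the Ikzf2 level was highest where reads on sensory receptor genes were most abundant. Ikzf2 was 1.31 and 0.874 RPKM where a sensory receptor gene had on average 0.293 and 0.302 RPKM (OT-II replicate 1 and DKO-labelled replicate 2), and 0.417 to 0.476 RPKM where it had 0.0769 to 0.110 RPKM. The part of these reads in the low Ikzf2 values was not tested. With the reads as a covariate the rise of Ikzf2 in OT-II cells was 4.03 (adjusted p = 0.0022), and over all alternatives its adjusted p was between 0.00098 and 0.031.

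Ikzf4 was at 2.60 and 2.50 RPKM in OT-II libraries of WT hosts and at 6.77 and 8.07 RPKM in those of RIPmOVA hosts. The libraries of each group lay close together and the groups did not overlap. The means were 2.55 ± 0.0714 and 7.42 ± 0.918 RPKM (SD, n = 2 each), a ratio of 2.91, with a log2 difference of 1.37 (SE 0.17, adjusted p = 0.0056). Without OT-II replicate 2 of RIPmOVA hosts the difference was 1.25 and was not called (adjusted p = 0.063, the highest over the alternatives, of which the lowest was 0.0034).

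Ikzf3 was at 8.50 and 7.47 RPKM in WT hosts and at 13.4 and 16.6 RPKM in RIPmOVA hosts. These groups did not overlap either, and the ratio of the means was 1.88. The log2 difference of 0.87 (SE 0.15) reached an adjusted p of 0.029 but not the fold threshold, and with sensory receptor reads as a covariate the adjusted p was 0.066 (0.019 to 0.17 over the alternatives).

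Ikzf1 was at 26.4 and 46.3 RPKM in OT-II libraries of WT hosts and at 36.0 and 37.2 RPKM in those of RIPmOVA hosts. The libraries of WT hosts lay on either side of the other group. The difference of 0.06 had a 95% interval from -0.46 to 0.59 on the log2 scale (adjusted p = 0.93). Ikzf5 was at 6.80 and 7.86 against 8.07 and 7.52 RPKM, with overlapping groups, a difference of 0.09 and an interval from -0.23 to 0.40. Counted by library values alone, 3 of 5 members were higher in RIPmOVA hosts without overlap, as were 19.4% of all genes tested.

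Markers of other cells were compared beside these rises. Foxp3, the defining factor of regulatory T cells, was at 0.290 and 0.491 RPKM in OT-II libraries of WT hosts and at 1.90 and 3.31 RPKM in those of RIPmOVA hosts, and the summed level of the 6 regulatory T cell markers was 65.6 to 72.3 and 158 to 160 RPKM. None of the 6 markers was at 0, and Foxp3 and Lrrc32 stayed below 1 RPKM in WT hosts. The 5 myeloid markers summed to 3.95 to 10.5 and 12.1 to 21.8 RPKM, of which Lyz2 made 7.54 and 1.65 RPKM in WT and 18.7 and 8.44 RPKM in RIPmOVA hosts, with Csf1r at 0.578 RPKM or lower in every library. B cell markers summed to 4.76 to 6.34 and 5.20 to 10.6 RPKM, with Pax5 at 0.1 RPKM or lower in every library. Thymic epithelium markers summed to 3.28 to 5.09 and 4.87 to 6.73 RPKM. Their part in the rises of OT-II cells was not tested.

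The same comparison in DKO-labelled cells asked which members respond under that label. Ikzf2, Ikzf3 and Ikzf4 rose, so that 3 of 5 members were called, all higher, beside 1.68% of all genes tested. As above, Ikzf2 passed the filter only through libraries of RIPmOVA hosts, so its part in this count is no support for a response of the family. The median was 1.06 over the members and 0.03 over all genes.

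Ikzf2 was at 0.417, 0.874 and 0.420 RPKM in DKO-labelled libraries of WT hosts and at 14.9 and 8.23 RPKM in those of RIPmOVA hosts. Both libraries of RIPmOVA hosts were above all others, although they differed from each other more than the OT-II libraries did. The means were 0.570 ± 0.263 (SD, n = 3) and 11.5 ± 4.69 RPKM (SD, n = 2), a ratio of 20.2, with a log2 difference of 3.46 (SE 0.33, adjusted p = 0.00094). With sensory receptor reads as a covariate it was 2.98 (adjusted p = 0.0096, and 0.00041 to 0.01 over the alternatives). Foxp3 was at 0.092 RPKM or lower in all 5 DKO-labelled libraries, and the summed regulatory T cell markers were at 35.5 to 43.8 RPKM in WT and 104 to 143 RPKM in RIPmOVA hosts. Markers of thymic epithelium (2.55 to 3.76 RPKM summed in WT and at least 7.18 RPKM in RIPmOVA hosts), of B cells (2.79 to 6.02 and 7.53 to 7.66) and of myeloid cells (3.02 to 5.43 and 5.58 to 6.76) were also higher in RIPmOVA hosts without overlap. Aire, Pax5 and Csf1r stayed at or below the levels given above, and the part of these markers in the rises of DKO-labelled cells was not tested.

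Ikzf4 was at 0.833, 1.22 and 0.928 RPKM in WT hosts and at 3.76 and 3.47 RPKM in RIPmOVA hosts. The groups did not overlap, and both values of RIPmOVA hosts were nearer to OT-II cells of WT hosts than to OT-II cells of RIPmOVA hosts. The ratio of the means was 3.63 and the log2 difference 1.47 (SE 0.16, adjusted p = 0.0018).

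Ikzf3 was at 6.71, 6.49 and 5.15 RPKM in WT hosts and at 12.5 and 13.9 RPKM in RIPmOVA hosts. The groups did not overlap, the ratio of the means was 2.16 and the log2 difference was 1.06 (SE 0.14, adjusted p = 0.0051). This call rests on the fold threshold. The difference was 0.95 without DKO-labelled replicate 3 of WT hosts, 0.99 without DKO-labelled replicate 2 of RIPmOVA hosts and 0.99 with the covariate, where the adjusted p was 0.064 (0.0026 to 0.064 over the alternatives).

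Ikzf1 was at 42.5, 49.4 and 35.7 RPKM in DKO-labelled libraries of WT hosts and at 29.7 and 32.8 RPKM in those of RIPmOVA hosts. Every library of RIPmOVA hosts was lower, but the difference of -0.43 (SE 0.21) had an adjusted p of 0.33 and an interval from -0.90 to 0.05. Ikzf5 was at 6.61, 8.23 and 7.79 against 7.10 and 8.31 RPKM, with a difference of 0.03 and an interval from -0.26 to 0.32. Of the 5 members, 3 were higher without overlap, as were 22.7% of all genes tested.

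**Figure D3:**
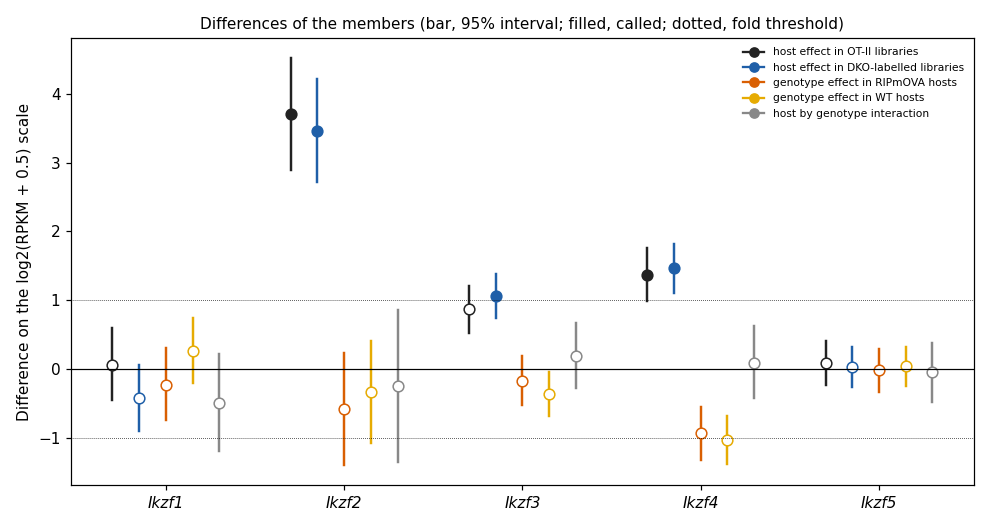
Difference of each member in each comparison (y axis, log2(RPKM + 0.5) scale) with its unadjusted 95% interval from limma, where filled points were called and dotted lines mark the fold threshold. Ikzf2 is at 3.71 and 3.46 in the host comparisons, Ikzf4 at 1.37 and 1.47, and the genotype differences of Ikzf4 are at -0.94 and -1.04.

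The difference between these host effects was tested as an interaction, the host effect in DKO-labelled minus that in OT-II libraries. It called 0 of 5 members with limma, beside 0.0173% of all genes called. An unadjusted p under 0.05 was seen for 0 members, beside 1078 of the 11569 genes tested. The interaction was -0.25 for Ikzf2 with an interval from -1.35 to 0.86, 0.19 for Ikzf3 with an interval from -0.28 to 0.66, and 0.09 for Ikzf4 with an interval from -0.43 to 0.62. For Ikzf1 it was -0.49, from -1.20 to 0.22, and for Ikzf5 -0.05, from -0.48 to 0.37. The interval of Ikzf2 left room for a host effect more than 2-fold smaller in DKO-labelled cells, and those of Ikzf3 and Ikzf4 were narrower.

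The comparison of DKO-labelled with OT-II cells in RIPmOVA hosts asked which members depend on genotype when the self-antigen is present. Ikzf4 was lower in DKO-labelled cells by slightly less than the fold threshold, and 0 of 5 members were called, beside 1.07% of all genes tested. Ikzf4 had 6.77 and 8.07 RPKM in OT-II and 3.76 and 3.47 RPKM in DKO-labelled libraries, a ratio of the means of 0.487. The groups did not overlap. The difference was -0.94 (SE 0.17, interval -1.33 to -0.55) at an adjusted p of 0.029, and the adjusted p was 0.086 with the chimera as a block and 0.22 with sensory receptor reads as a covariate, within a range of 0.014 to 0.22 over the alternatives. Under a pseudocount of 0.1 and under quantile normalization the difference was -1.01 and was called.

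Ikzf2 was at 19.6 and 14.5 RPKM in OT-II and 14.9 and 8.23 RPKM in DKO-labelled libraries of RIPmOVA hosts, and these groups overlapped. The difference of -0.58 (SE 0.36) had an interval from -1.40 to 0.23 (adjusted p = 0.37). It was -1.30 with sensory receptor reads as a covariate (adjusted p = 0.36, and 0.26 to 0.88 over the alternatives), -0.99 without DKO-labelled replicate 1 and -0.18 without DKO-labelled replicate 2 of these hosts. Ikzf3 differed by -0.17 (interval -0.52 to 0.18), Ikzf1 by -0.23 (interval -0.75 to 0.30) and Ikzf5 by -0.02 (interval -0.33 to 0.29). Without overlap, 2 of 5 members were lower in DKO-labelled libraries, Ikzf1 and Ikzf4, as were 24.4% of all genes tested. Foxp3 was lower beside Ikzf4, at 0.092 and 0.077 RPKM in DKO-labelled against 1.90 and 3.31 RPKM in OT-II libraries. The summed myeloid markers were also lower, at 5.58 to 6.76 against 12.1 to 21.8 RPKM. Of these only Lyz2 was lower without overlap, at 2.12 and 2.83 against 18.7 and 8.44 RPKM. Csf1r was higher, at 0.443 and 0.578 against 0.400 and 0.043 RPKM, and Itgam, Cd68 and Fcer1g overlapped. The 6 regulatory T cell markers summed to 104 to 143 against 158 to 160 RPKM, with Il2ra, Tnfrsf18 and Lrrc32 also lower without overlap, Capg overlapping, and Ctla4 higher at 23.2 and 22.1 against 11.7 and 20.4 RPKM. Their part in the Ikzf4 difference was not tested.

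In WT hosts, without the self-antigen, the genotype comparison called 0 of 5 members, beside 0.0605% of all genes tested. Ikzf4 again had the largest difference of the 5. It was at 2.60 and 2.50 RPKM in OT-II and at 0.833, 1.22 and 0.928 RPKM in DKO-labelled libraries. The highest DKO-labelled library was below both OT-II libraries, and the ratio of the means was 0.390. The difference of -1.04 (SE 0.16, interval -1.39 to -0.68) had an unadjusted p of 9.8e-05 and an adjusted p of 0.081, and it was called only when OT-II replicate 2 was left out (-1.06, adjusted p = 0.046), with adjusted p from 0.046 to 0.42 over the alternatives. Foxp3 was at 0.290 and 0.491 RPKM in these OT-II and at 0.037 to 0.071 RPKM in these DKO-labelled libraries. The 6 regulatory T cell markers summed to 65.6 to 72.3 against 35.5 to 43.8 RPKM. Il2ra, Ctla4 and Tnfrsf18 were also lower without overlap, while Capg and Lrrc32 overlapped. The part of these markers in the Ikzf4 difference was not tested.

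Ikzf3 was at 8.50 and 7.47 RPKM in OT-II and 6.71, 6.49 and 5.15 RPKM in DKO-labelled libraries of WT hosts, without overlap, with a difference of -0.36 (unadjusted p = 0.030, adjusted p = 0.56). Ikzf2 differed by -0.34 (interval -1.08 to 0.41), Ikzf1 by 0.26 (interval -0.21 to 0.74) and Ikzf5 by 0.04 (interval -0.25 to 0.32). Ikzf3 and Ikzf4, 2 of 5 members, were lower without overlap, as were 10.3% of all genes tested.

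Within chimeras, Ikzf4 was lower in DKO-labelled than in OT-II cells in 4 of 4 animals. The Ikzf4 groups did not overlap in either host, so any pairing would give this count and it is no separate support. The share of all genes that were lower in every pair was not counted. The ratio of DKO-labelled to OT-II RPKM was 0.321 and 0.490 in the chimeras with WT hosts and 0.555 and 0.430 in those with RIPmOVA hosts. Ikzf3 was also lower in 4 of 4 chimeras, with smaller differences and ratios from 0.790 to 0.934. Ikzf2 was lower in 3 of 4, with ratios of 0.319 and 1.84 in WT hosts, where its level was low, and of 0.759 and 0.567 in RIPmOVA hosts. Ikzf1 and Ikzf5 were each lower in 2 of 4. With 2 such pairs in each host, no test over pairs is given.

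**Figure D4:**
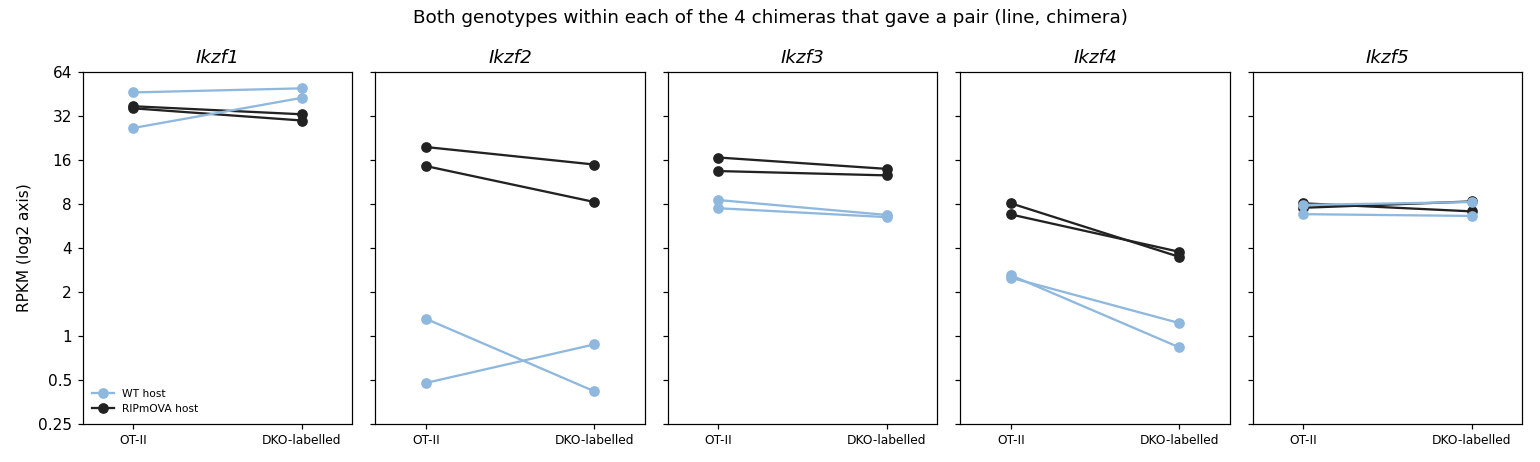
RPKM of each member (y axis, log2 axis shared by the panels) in OT-II and DKO-labelled cells (x axis) of the same chimera, with a line for each of the 4 chimeras. All 4 lines of Ikzf4 fall, with ratios from 0.321 to 0.555, as they must where the groups do not overlap in either host. Those of Ikzf5 stay between 6.61 and 8.31 RPKM.

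Genes of the complexes with which Ikaros family proteins act were compared from fixed lists. The NuRD complex joins histone deacetylases with a chromatin remodelling ATPase, and 0 of its 14 genes were called in any of the 5 comparisons, although all 14 were tested. The subunits were well expressed, as Mta2 at 85.3 to 96.2 RPKM and Hdac1, a deacetylase, at 43.9 to 59.8 RPKM. The median of the 14 genes was 0.05 in the host comparison of OT-II and -0.13 in that of DKO-labelled cells, beside -0.02 and 0.03 over all genes. The largest difference was that of Mbd2, a reader of methylated DNA, at -0.96 in the host comparison of DKO-labelled cells. Its groups overlapped there (limma adjusted p = 0.44), and its level ranged from 7.43 to 48.1 RPKM over the libraries. Of 4 other corepressors 3 were tested, Sin3a, Sin3b and Ctbp1, and 0 were called. Of the cereblon ubiquitin ligase, which in human cells is directed by thalidomide analogues to Ikaros and Aiolos through the second zinc finger, 5 of 5 genes were tested and 0 were called. Crbn itself was at 27.1 to 51.5 RPKM.

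Among 6 genes of the Notch pathway, which Ikaros restrains in thymocytes, 3 were tested. Hes1, a transcriptional repressor induced by Notch, was called higher in RIPmOVA hosts in OT-II cells, which is 1 of 3, beside 1.23% of all genes tested. Hes1 passed the filter on low values only through libraries of RIPmOVA hosts, so this count is no support for a response of the list. It was at 0 and 0.068 RPKM in WT hosts and at 2.59 and 2.16 RPKM in RIPmOVA hosts, a log2 difference of 2.43 (SE 0.46, adjusted p = 0.033). This call was lost without OT-II replicate 1 of WT hosts, DKO-labelled replicate 3 of WT hosts, or either OT-II replicate of RIPmOVA hosts, at adjusted p from 0.054 to 0.33. It was also lost with a pseudocount of 0.1 (adjusted p = 0.082), after quantile normalization (0.061), with sensory receptor reads as a covariate (0.052) and with a block by the number shared across hosts (0.099). In DKO-labelled libraries Hes1 was at 0, 0.157 and 0.395 RPKM in WT and 1.16 and 0.317 RPKM in RIPmOVA hosts, with overlapping groups and no call (adjusted p = 0.34). The interaction of Hes1 was -1.62 (SE 0.62, adjusted p = 0.51), so a difference between the genotypes in this response was not established. Dtx1, another Notch target, was not called in any comparison and had -1.09 in OT-II and -0.88 in DKO-labelled cells.

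Of 10 genes of early T cells and T cell lineages under known Ikaros family control, 9 were tested. In the host comparison 3 of 9 were called in OT-II (1.23% of all genes) and 2 of 9 in DKO-labelled cells (1.68% of all genes), all higher, with medians of 0.77 and 0.55. Tbx21, encoding T-bet, rose from 0.207 and 0.174 to 5.92 and 4.85 RPKM in OT-II cells, a log2 difference of 3.09 (SE 0.32, adjusted p = 0.0021). In DKO-labelled cells Tbx21 was at 0.099, 0.259 and 0 RPKM in WT and at 7.44 and 4.01 RPKM in RIPmOVA hosts, a difference of 3.29 (adjusted p = 0.00069). Tbx21 passed the filter on low values only through libraries of RIPmOVA hosts, so its part in the counts above is no support for a response of the list. Il2ra, encoding the high-affinity chain of the receptor for interleukin 2, rose by 1.88 in OT-II cells (SE 0.29, adjusted p = 0.016), from a mean of 3.27 to 12.9 RPKM, and was not called when either OT-II replicate of RIPmOVA hosts was left out (adjusted p = 0.12 and 0.11) or in a fit to the compared groups only (0.055). In DKO-labelled cells Il2ra rose by 2.04 (adjusted p = 0.0046), from 1.27 to 6.87 RPKM, and with sensory receptor reads as a covariate by 1.76, which was not called (adjusted p = 0.054). The third gene called in OT-II cells was Bcl6, encoding the lineage factor of follicular helper T cells. It was named after its value was seen, with means of 3.41 and 8.15 RPKM. Rag1, Dntt, Cd4, Cd8a, Cd8b1 and Il2 were not called in any comparison, and the genotype comparisons and the interaction called 0 genes of these 5 lists.

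**Figure D5:**
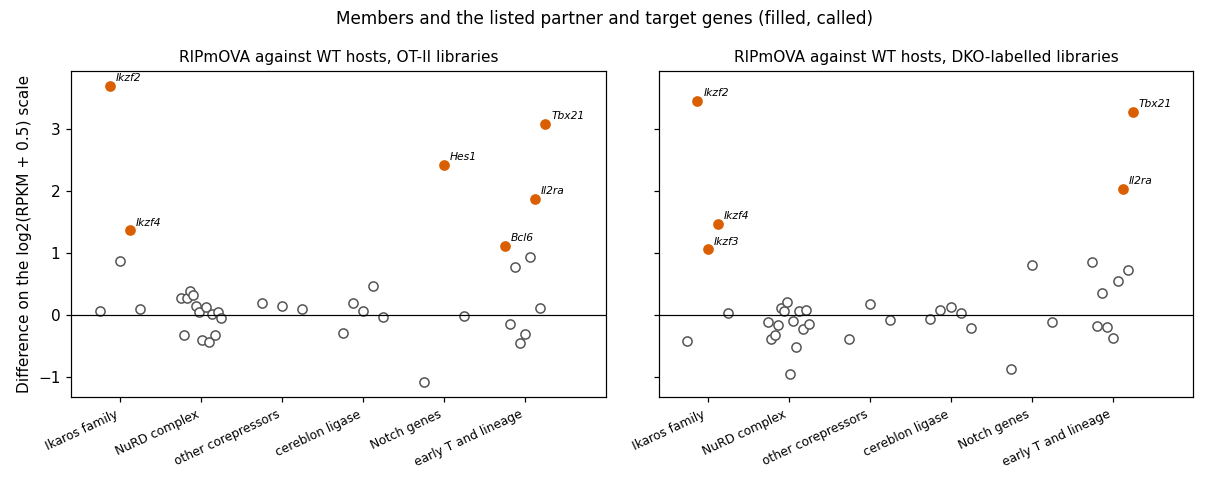
Difference between RIPmOVA and WT hosts (y axis, log2(RPKM + 0.5) scale) for the members and the genes of 5 lists (x axis), in OT-II libraries on the left and DKO-labelled libraries on the right, with filled points for called genes. The 14 NuRD genes lie between -0.44 and 0.38 on the left and between -0.96 and 0.21 on the right, below the filled points of Ikzf2 and Ikzf4.

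The genes with the most similar pattern to each member were found by Pearson correlation of log2(RPKM + 0.5) over the 9 libraries among 7452 genes. Any gene that differs between hosts in the same direction as a member also has a high value, and the values are a description. For Ikzf2 they were Irf8 (r = 0.993), Rgs16 (0.989), Tbx21 (0.987), Snx18 (0.984) and Gadd45b (0.982). Gadd45b, a stress response gene, had means of 1.98 and 1.68 RPKM in OT-II and DKO-labelled cells of WT hosts and of 47.1 and 43.3 RPKM in those of RIPmOVA hosts. For Ikzf3 they were Hacl1 (0.969), Nfkbiz (0.966), Zfr (0.955), Il2ra (0.954) and Tnfrsf4 (0.951).

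For Ikzf4 they were Cd101 (r = 0.980), Nabp1 (0.979), Wsb1 (0.979), Bcl2l11 (0.977) and Arhgap18 (0.973). Bcl2l11 encodes Bim, a protein that promotes cell death, and its means were 6.59 and 1.62 RPKM in OT-II and DKO-labelled cells of WT hosts and 33.2 and 6.72 RPKM in those of RIPmOVA hosts. Each of these 5 genes had a lower mean in DKO-labelled than in OT-II libraries in both hosts. They were chosen for their similarity to Ikzf4, which has the same pattern, so this is no separate support. For Ikzf1 they were Itpr3 (0.985), Tbc1d22b (0.977), Sbf1 (0.977), Ctdsp2 (0.976) and Zbtb7b (0.975), the last encoding the CD4 lineage factor ThPOK. For Ikzf5 the values were lower, with Mir3060 (0.921), Epm2aip1 (0.907), Fam13b (0.907), Spo11 (0.890) and Arrdc3 (0.862). Among the members themselves the correlation was 0.94 between Ikzf2 and Ikzf3, 0.89 between Ikzf2 and Ikzf4 and 0.93 between Ikzf3 and Ikzf4, and it was between -0.43 and 0.37 for every pair with Ikzf1 or Ikzf5.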

How the data were processed

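The authors mapped paired reads of 100 bases (SMART-seq v4, Nextera XT) with STAR to mm10 (GENCODE vM17), removed PCR duplicates with Picard, summed exon reads per Entrez gene and deposited RPKM. STAR and Picard versions are not given in the sources used here. Total reads were recovered from the steps of low values, of which 100% came out as whole reads (within 0.1). Tests used limma 3.58.1 in R 4.3.3 on log2(RPKM + 0.5) for the 11569 genes at 1 RPKM or more in at least 2 libraries, in a model of 4 group means with an intensity trend. Groups of 2 or 3 make the p-values rest on a shared spread. Members and lists were chosen with earlier results of these data known. Named were the members, per comparison up to 2 called genes of each list by size of change, the 5 genes most correlated with each member (of those reaching 5 RPKM), and the targeted genes. Labels pair genotypes within a chimera, and deviations of the pairs from their group means correlated at 0.01 and -0.24 in WT hosts. Both pairs of RIPmOVA hosts gave -0.08, the same value by construction, because the deviations in a group of 2 mirror each other.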

Additional observations from a re-analysis of the deposited data

How the results depend on the processing

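Over all genes, the host effect in OT-II cells called 142 genes, 219 on the adjusted p alone, 78 with a replicate block by the number shared across hosts, 92 in a fit to those groups only, and 53 to 296 with a library left out. The host effect in DKO-labelled cells called 194, 387 on the adjusted p alone, 90 with sensory receptor reads as a covariate, 110 with the block by number and 102 to 258 with a library left out. The genotype effect in RIPmOVA hosts called 124, 81 with a filter at 5 RPKM, 201 after quantile normalization, 256 on the adjusted p alone, 20 with the covariate, 295 in a fit to those groups and 22 to 217 with a library left out. In WT hosts it called 7, 2 with the chimera as a replicate block, 2 in a fit to those groups and 5 to 102 with a library left out. The interaction called 2, 8 without a filter, 0 with a pseudocount of 0.1, a filter at 5 RPKM, the covariate or the chimera block, and 0 to 165 with a library left out. Settings that left out samples or genes have fewer of them by construction, and otherwise the cause was not tested.

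Of the members, Ikzf2 was called in both host comparisons under every alternative run. Members called in the host effect of OT-II cells were 1 to 2 with a library left out, and Ikzf4 lay between 1.25 and 1.49. On the adjusted p alone Ikzf3 (0.87) was called there as well. Ikzf3 in DKO-labelled cells lost its call with the covariate (0.99), with the block by number (0.95) and with some libraries left out (0.95 to 1.13). In RIPmOVA hosts 1 member was called lower in DKO-labelled cells, Ikzf4, with a pseudocount of 0.1 (-1.01), after quantile normalization (-1.01) and on the adjusted p alone (-0.94). In WT hosts 0 to 1 members were called with a library left out, where Ikzf4 lay between -1.14 and -0.96. The chimera block was run only for the genotype comparisons and the interaction. It called 0 members, as did the main fit there, so it says nothing on the calls in the host effects.

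Changes of sign occurred only among differences that were not called. With a library left out, Ikzf1 lay between -0.33 and 0.46 in the host effect of OT-II cells and between -0.13 and 0.66 in the genotype effect in WT hosts, and Ikzf2 between -0.78 and 0.11 in the latter and between -0.69 and 0.20 in the interaction. Ikzf4 in the interaction lay between -0.02 and 0.21, and was -0.03 with a pseudocount of 1 and -0.00091 with the covariate. Ikzf5 lay between -0.01 and 0.18 and between -0.08 and 0.14 in the host effects of OT-II and DKO-labelled cells, between -0.12 and 0.09 and between -0.06 and 0.13 in the genotype effects in RIPmOVA and WT hosts, and between -0.16 and 0.05 in the interaction, and was -0.00028 with the covariate in the host effect of DKO-labelled cells. Group means of the members moved by less than 1 SD after median-of-ratios rescaling. Same-numbered libraries of different hosts correlated in their deviations at 0.10 to 0.23 within a genotype and at -0.25 to -0.09 between genotypes. Where both groups held 2 libraries, the pairs gave the same value by construction. Groups held 2 or 3 libraries, and Ikzf2 in WT hosts rested on 176 to 351 reads.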
